A study of Mus musculus with 12 samples.

Results

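The long non-coding RNAs described here are Malat1, Neat1, Miat, Meg3, Rian, Mirg and Snhg11, 7 of the 78334 gene IDs of a table of raw read counts from mouse hypothalamus. They were selected by symbol as abundant nuclear and imprinted long non-coding RNAs, and Malat1 was chosen because its level in resveratrol-treated mice had been seen to shift when 1 of their libraries is left out. Its levels in that group are therefore given as a description, with no test. The study compared hypothalami of male C57BL/6 mice in 5 groups. Ob + RSV (n = 3), Ob + EAE (n = 2) and Ob + CUR (n = 1) were mice with obesity on a high-fat diet (HFD, 60% of kcal from fat) that received, by daily gavage for 28 days, resveratrol at 2.25 mg/kg, aged garlic extract at 200 mg/kg or curcumin at 50 mg/kg. Ob (n = 3) received the same diet with vehicle gavage, and C (n = 3) received a standard diet with vehicle gavage. The mice were 8 weeks old when the diet began and 16 weeks old when gavage began, and the sources used here differ on whether the diet lasted 8 weeks in all or went on through the gavage. The obesity is one induced by diet, and the single Ob + CUR library gives values without a test.

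Malat1 and Neat1 are transcribed from neighbouring genes and stay in the nucleus. Malat1 gathers at nuclear speckles, where splicing factors are stored, Neat1 is the scaffold of paraspeckles, and Miat (also called Gomafu) forms nuclear bodies of its own in neurons. Meg3, Rian and Mirg are read from the maternal copy of the imprinted Dlk1-Dio3 domain, where Rian carries small nucleolar RNAs (snoRNAs) in its introns and Mirg carries a cluster of microRNAs (miRNAs), while the protein-coding genes Dlk1, Rtl1 and Dio3 are read from the paternal copy. Snhg11 is a neuronal host gene of snoRNAs. The GENCODE vM21 annotation, used below for exon lengths, labels it protein-coding. The libraries were made from polyadenylated RNA, and the usual 3′ end of Malat1 and of the long form of Neat1 carries no poly(A) tail, so the counts cover the part of these RNAs that the selection retained.

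Total counts ran from 15655156 in Ob replicate 3 to 26284661 in Ob + RSV replicate 1. All 12 hypothalamic marker genes on the list used (Agrp, Npy, Pomc and others) were in the table, and none was at 0 in 10 of the 12 libraries. Their summed level, in CPM (counts scaled to the total of the library), was 1184 to 2250 in Ob + RSV, 1096 and 1293 in Ob + EAE, 350 in Ob + CUR, 1524 to 3159 in Ob and 1488 to 2203 in C. The sum was thus lowest in Ob + CUR. Oxt (4.04 CPM), Avp (8.42 CPM), Hcrt, Pmch, Trh and Gal were at their lowest of the 12 libraries there. Nkx2-1 and Sim1 were at their highest there, at 87.1 and 24.3 CPM, and Agrp, Npy, Pomc and Otp were neither lowest nor highest. Ob + RSV replicate 2, C replicate 2 and Ob replicate 1 stood apart in the number of gene IDs with a read, with 24450, 25979 and 26123 against 28632 to 38081 in the other libraries, and results that rest on them are also given without them. Of the gene IDs with a read, 7.30% had under 10 reads in Ob + RSV replicate 2, against 20.3% to 43.5% in all other libraries. In whole tissue, fewer cells of a type and less RNA per cell cannot be told apart.

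Promoter sequences of Meg3, the most abundant of these RNAs in CPM, and Malat1, the most variable, are shown because the values below turn on these 2 genes. Each runs 300 bases, from 250 before to 50 after the annotated start, 5′ to 3′ on the gene's strand, in RefSeq on GRCm38.p6. The Meg3 window is chr12:109540746-109541045 on the plus strand, and the Malat1 window is chr19:5802623-5802922 on the minus strand. RefSeq listed 2 windows for Meg3, of which the first is shown, and 1 for Malat1. In Meg3 the capitals mark the cAMP response element TGACGTCA and matches of TATAAA on either strand, which overlap each other, and in Malat1 they mark the shorter element TGACG on either strand.
Meg3: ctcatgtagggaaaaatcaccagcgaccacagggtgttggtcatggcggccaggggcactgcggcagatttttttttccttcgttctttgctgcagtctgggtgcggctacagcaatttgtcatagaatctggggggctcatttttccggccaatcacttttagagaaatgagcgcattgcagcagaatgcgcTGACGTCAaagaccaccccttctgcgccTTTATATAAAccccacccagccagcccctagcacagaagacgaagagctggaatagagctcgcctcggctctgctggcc
Malat1: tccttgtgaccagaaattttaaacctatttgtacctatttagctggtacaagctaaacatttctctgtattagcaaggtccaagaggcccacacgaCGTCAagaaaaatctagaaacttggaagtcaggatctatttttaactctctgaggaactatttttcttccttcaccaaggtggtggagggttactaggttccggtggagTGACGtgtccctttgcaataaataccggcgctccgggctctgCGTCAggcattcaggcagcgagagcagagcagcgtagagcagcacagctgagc
The full element TGACGTCA, searched on both strands, was in 1.79% of 32851 RefSeq promoter windows of this length. Among these RNAs it was found for Meg3, in the window shown, starting at position −57 from the annotated start of that window. TATAAA was in 13.6% of all windows and, among these RNAs, was found for Meg3, also in the window shown. Neat1 had no entry and was not searched. The element TGACG, which the full element contains, was in 20.8% of all windows and was present in both genes, at −154, −45 and −3 in Malat1. A match describes the letters of the window and is not evidence of binding.

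The imprinted RNAs also span miRNA genes, and a few mature sequences are printed because they are products of these transcripts that the libraries did not measure. RefSeq places 10 miRNA genes inside Mirg, 3 inside Rian and 2 inside Meg3. In the lines below the seed, bases 2 to 8, is in capitals. The first 4 lie in Mirg, at chr12:109735669-109735692, chr12:109739132-109739152, chr12:109740553-109740574 and chr12:109743764-109743784, and the last lies in Rian, at chr12:109618305-109618326, all on the plus strand of GRCm38.p6.
mmu-miR-453: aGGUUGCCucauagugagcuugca
mmu-miR-496a-5p: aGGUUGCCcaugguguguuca
mmu-miR-377-3p: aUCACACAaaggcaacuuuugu
mmu-miR-410-3p: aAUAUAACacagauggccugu
mmu-miR-370-3p: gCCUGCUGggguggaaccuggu
mmu-miR-453 and mmu-miR-496a-5p share the seed GGUUGCC, and the other 3 have seeds found once among the miRNAs of these hosts. The 15 precursor gene IDs of the hosted miRNAs in the table held 776 reads in all over the 12 libraries, while Mirg alone had 1222 to 3072 reads in each library. The levels below are thus of the host transcripts.

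Meg3 and Snhg11 were among the most abundant transcripts of the tissue. Meg3 ranked between 2 and 15 among all gene IDs by reads in a library, and Snhg11 ranked between 4 and 22. Together the 7 RNAs took 0.647% of all counts in Ob + RSV replicate 1, the lowest share, and 1.505% in Ob + RSV replicate 3, the highest. Per kilobase of merged exons in GENCODE vM21, the order of mean CPM per kilobase over the 12 libraries was Snhg11 (434.8 ± 106.5, SD, n = 12), Meg3 (315 ± 66.3), Malat1 (114 ± 65.0), Rian (43.9 ± 8.17), Miat (38.0 ± 8.65), Mirg (12.0 ± 4.05) and Neat1 (8.36 ± 2.24). Each RNA exceeded the next in that order in all 12 libraries, except Rian over Miat and Mirg over Neat1, which held in 11 of 12 each. Exon length was 20771 bases for Neat1, most of it in the long form that lacks a poly(A) tail, so its value per kilobase depends on which form was captured.

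**Figure D1:**
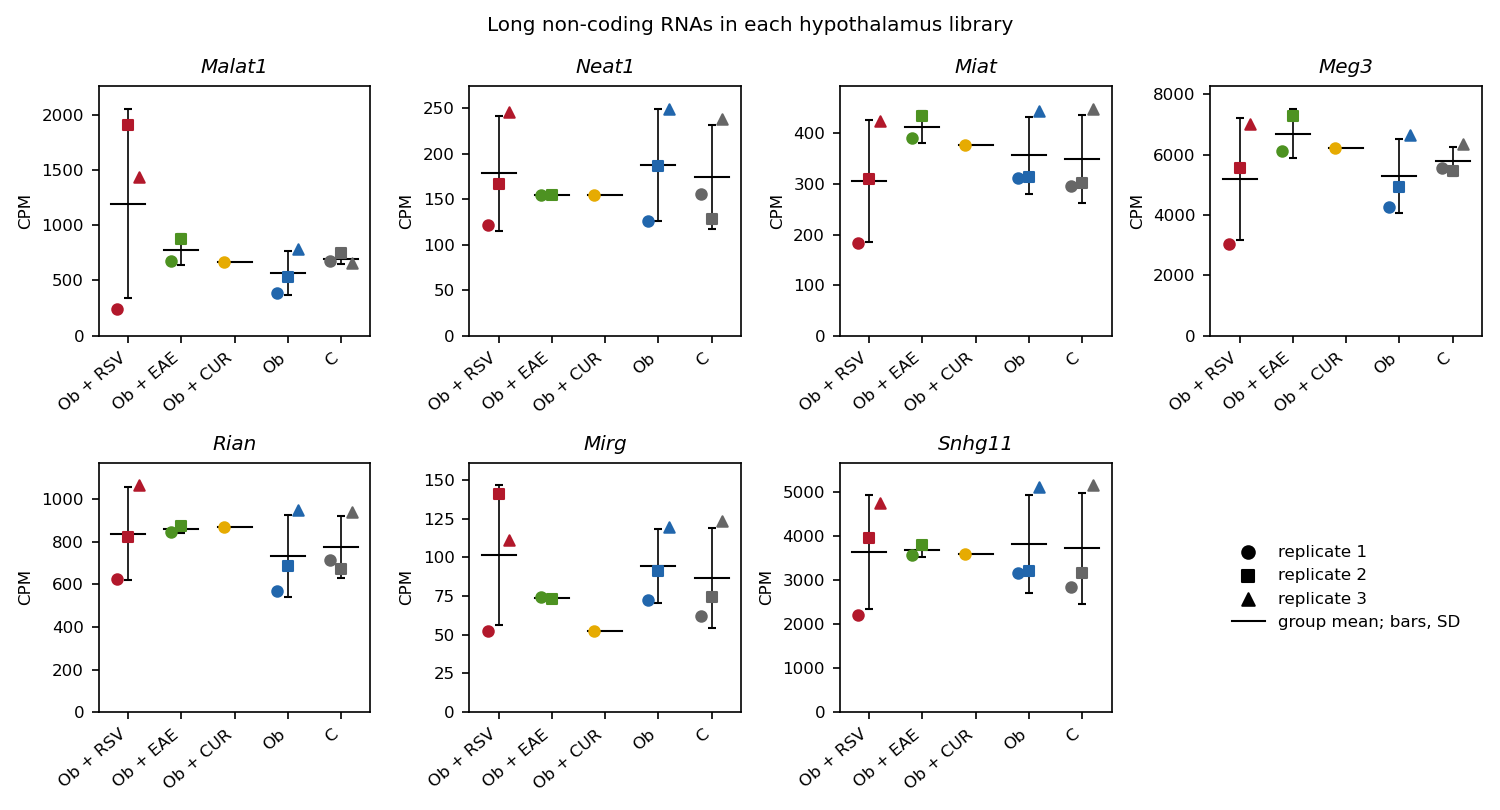
CPM of each RNA (y axis, starting at 0) in every library, by group on the x axis (Ob + RSV, Ob + EAE, Ob + CUR, Ob, C), with the group mean as a line and the SD as bars where n is over 1. Malat1 ran from 242 to 1908 CPM inside Ob + RSV, wider than the whole range of its other libraries.

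Malat1 varied more inside Ob + RSV than its group means varied between groups. It had 242, 1908 and 1435 CPM in replicates 1, 2 and 3 of Ob + RSV, against 386, 527 and 785 CPM in Ob and 676, 745 and 655 CPM in C. In Ob + EAE it had 679 and 875 CPM, and in Ob + CUR 670 CPM. The lowest and the highest of the 12 libraries for Malat1 were thus both resveratrol libraries, and they lay 7.87-fold apart. They held 6370 and 41521 reads of Malat1. The mean was 1195 ± 858 CPM in Ob + RSV (SD, n = 3), 777 ± 138 CPM in Ob + EAE (n = 2), 566 ± 203 CPM in Ob (n = 3) and 692 ± 46.7 CPM in C (n = 3), and in order of level (Ob + RSV, Ob + EAE, C, Ob + CUR, Ob) the libraries of each group overlapped those of the next.

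As a description, the log2 fold change (log2FC) of Malat1 from edgeR's quasi-likelihood fit of the 9 libraries of C, Ob and Ob + RSV was 1.04 (SE 0.37) against Ob and 0.77 (SE 0.37) against C. Both values depended on which resveratrol library was present. Without Ob + RSV replicate 1 they were 1.51 and 1.25, and without Ob + RSV replicate 2 they were 0.53 and 0.27. Without the 3 libraries that stand apart they were 0.34 and 0.31. The SE of the fit draws on the spread of all genes, whereas the SD of Malat1 itself inside Ob + RSV was 1.57 on the log2 CPM scale. This was above 99.8% of the 4718 genes with a mean of at least 50 CPM, whose median SD was 0.26. That rank is a description, since Malat1 was chosen for its shift in this group. The SDs of the other RNAs there ran from 0.35 in Rian (above 71.9% of those genes) to 0.70 in Mirg (98.3%). In Ob the SD of Malat1 was 0.45, and in C it was 0.09, lower than in most of those genes.

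**Figure D2:**
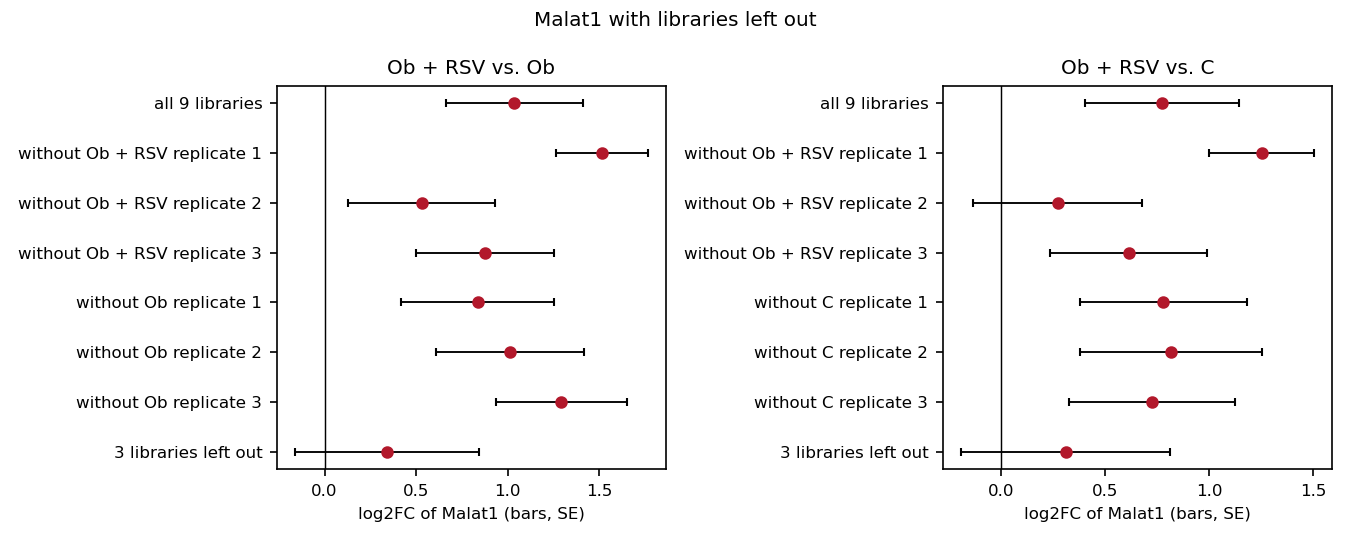
log2FC of Malat1 (x axis, with SE as bars) for Ob + RSV against Ob (left) and against C (right), with all 9 libraries and with the libraries named on the y axis left out. The values run from 0.34 to 1.51 against Ob and from 0.27 to 1.25 against C.

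Neat1, transcribed beside Malat1, did not share its range. It had 122, 167 and 246 CPM in Ob + RSV, 154 and 155 CPM in Ob + EAE, 154 CPM in Ob + CUR, 126, 187 and 250 CPM in Ob and 156, 128 and 238 CPM in C. The groups with 3 libraries covered almost the same span, and the other 3 libraries lay within it. Reads of Malat1 per read of Neat1 ran from 1.99 in Ob + RSV replicate 1 to 11.4 in Ob + RSV replicate 2. Miat, the RNA of separate neuronal bodies, had 184, 310 and 424 CPM in Ob + RSV, 390 and 435 CPM in Ob + EAE, 376 CPM in Ob + CUR, 312, 313 and 445 CPM in Ob and 295, 302 and 449 CPM in C. Its Ob + RSV replicate 1 was below every other library, and all groups of 2 or 3 libraries overlapped.

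Meg3 had 3037, 5543 and 7022 CPM in Ob + RSV, 6114 and 7281 CPM in Ob + EAE, 6217 CPM in Ob + CUR, 4263, 4941 and 6645 CPM in Ob and 5568, 5455 and 6340 CPM in C. Its means were 5201 ± 2014 CPM in Ob + RSV, 5283 ± 1227 CPM in Ob and 5788 ± 482 CPM in C (SD, n = 3 each), so the groups differed by less than the spread inside Ob + RSV. Rian, the snoRNA host of the domain, had 627, 820 and 1064 CPM in Ob + RSV, 845 and 871 CPM in Ob + EAE, 868 CPM in Ob + CUR, 569, 684 and 946 CPM in Ob and 711, 671 and 940 CPM in C. It was the RNA of the set whose lowest library was Ob replicate 1 rather than a resveratrol or curcumin library.

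Mirg, the miRNA host, had 52.5, 141 and 111 CPM in Ob + RSV, 74.7 and 73.4 CPM in Ob + EAE, 52.5 CPM in Ob + CUR, 72.5, 91.2 and 120 CPM in Ob and 62.3, 74.3 and 123 CPM in C. The Ob + CUR library was below all Ob and C libraries, and level with Ob + RSV replicate 1. Snhg11 had 2209, 3958 and 4744 CPM in Ob + RSV, 3560 and 3789 CPM in Ob + EAE, 3594 CPM in Ob + CUR, 3158, 3205 and 5098 CPM in Ob and 2833, 3164 and 5150 CPM in C. Its group means lay between 3594 and 3820 CPM, the narrowest relative span among the 7 RNAs, and its libraries overlapped between all neighbouring groups.

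The 7 RNAs tended to be low or high in the same libraries. In Ob + RSV, replicate 1 was the lowest for 7 of 7, and replicate 3 was the highest for 5 of 7, with replicate 2 the highest for Malat1 and Mirg. In Ob, replicate 1 was the lowest and replicate 3 the highest for 7 of 7, and in C, replicate 3 was the highest for 6 of 7, with Malat1 lowest there. On the log2 CPM scale, the mean deviation of the 7 from their own medians was −0.76 in Ob + RSV replicate 1 and −0.35 in Ob replicate 1, against 0.52 in Ob + RSV replicate 3, 0.40 in Ob replicate 3 and 0.36 in C replicate 3. The 2 Ob + EAE libraries, at 0.04 and 0.16, and the Ob + CUR library, at −0.03, lay near the medians.

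**Figure D3:**
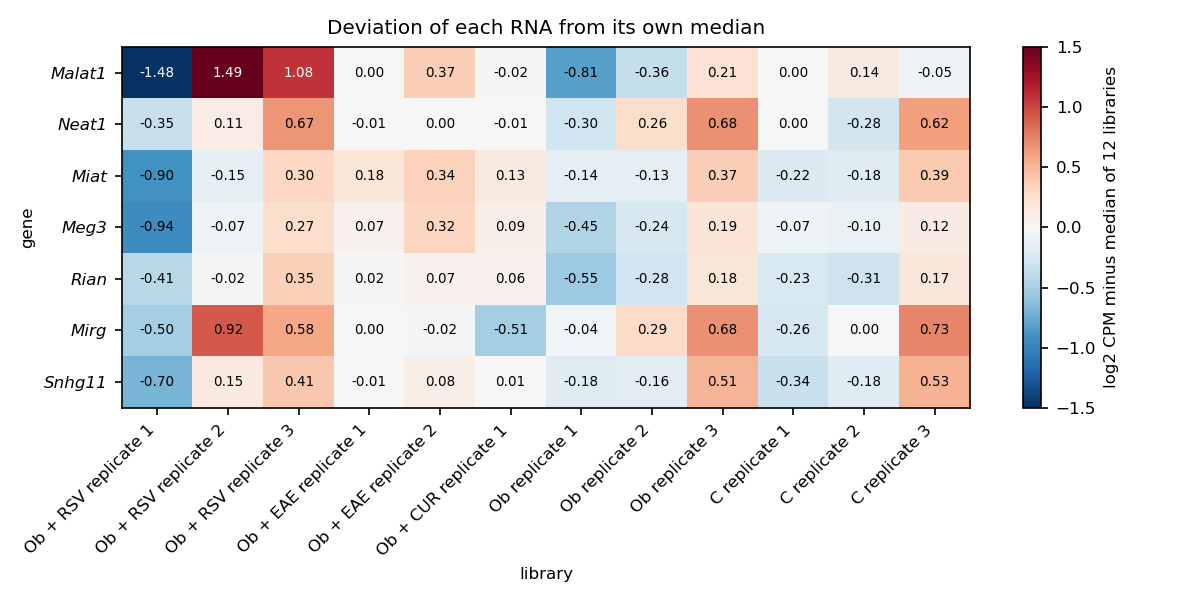
log2 CPM of each RNA (rows) in each library (columns, by group) minus its median over the 12 libraries, with the value in each cell and the colour scale at the right. Ob + RSV replicate 1 is below the median for all 7 RNAs and Ob + RSV replicate 3 is above it for all 7.

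Other properties moved with these libraries. Ob + RSV replicate 1 and Ob replicate 1 had the highest summed CPM of the 12 ribosomal protein mRNAs on the list used, 2066 and 2430, against 931 to 1759 in the other libraries. They also had the lowest shares of counts in protein-coding genes with over 6000 bases of exons, 32.9% and 30.7%, against 35.0% to 44.7% elsewhere. The summed CPM of the 6 neuron markers was 3775 in Ob + RSV replicate 1 and 3473 in Ob replicate 1, within the 3235 to 4072 of the other libraries. Single markers differed. Tubb3 was highest in these libraries, at 642 and 698 CPM against 380 to 576 CPM elsewhere, while Syt1, at 524 and 506 CPM, lay within the 422 to 817 CPM elsewhere. The summed CPM of the 6 astrocyte markers was 595 in C replicate 3, the lowest, against 1105 to 2951 in the other libraries. The summed CPM of the 9 mitochondrial transcripts was 47916 to 59110 in Ob + RSV replicates 2 and 3, Ob replicate 3 and C replicate 3, the 4 libraries with the highest mean deviation of the 7 RNAs, against 33137 to 42812 in the other 8. The part of these properties in the levels of the 7 RNAs was not tested.

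Across the 12 libraries, all 21 pairs of these RNAs had a positive Pearson correlation of log2 CPM, given as a description since the points share library depth and composition. The highest was between Miat and Meg3 (r = 0.91, Spearman's rho = 0.81), with 0.90 over the 9 libraries of C, Ob and Ob + RSV and 0.79 without the 2 libraries farthest from the median of Miat. The lowest was between Meg3 and Mirg (r = 0.36, rho = 0.19), which are read from the same strand of the same domain, with 0.69 over the 9 libraries and 0.0095 without the 2 farthest. It was thus lower with the Ob + EAE and Ob + CUR libraries included, and what remained rested on Ob + RSV replicate 1 and Ob replicate 1. Neat1 and Malat1 had r = 0.41 (rho = 0.41, 0.43 over the 9 libraries and 0.45 without the 2 farthest).

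The levels were also set against Meg3 in the same library, as a description that uses the same libraries for which Malat1 was chosen. Malat1 had 0.0798, 0.344 and 0.204 reads per read of Meg3 in Ob + RSV, against 0.0905, 0.107 and 0.118 in Ob and 0.121, 0.136 and 0.103 in C. The highest ratio was 4.31 times the lowest over the 12 libraries for Malat1, against 1.38 times for Miat, 1.60 times for Snhg11, 1.72 times for Rian and 3.01 times for Mirg. For Rian the highest ratio, 0.206, was in Ob + RSV replicate 1, where Meg3 was lowest, and the other 11 libraries lay between 0.120 and 0.152. For Mirg, the 0.0101 and 0.0122 in Ob + EAE and the 0.00845 in Ob + CUR were below the 0.0170 to 0.0185 in Ob, whereas C, at 0.0112 to 0.0195, overlapped both Ob + EAE and Ob.

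**Figure D4:**
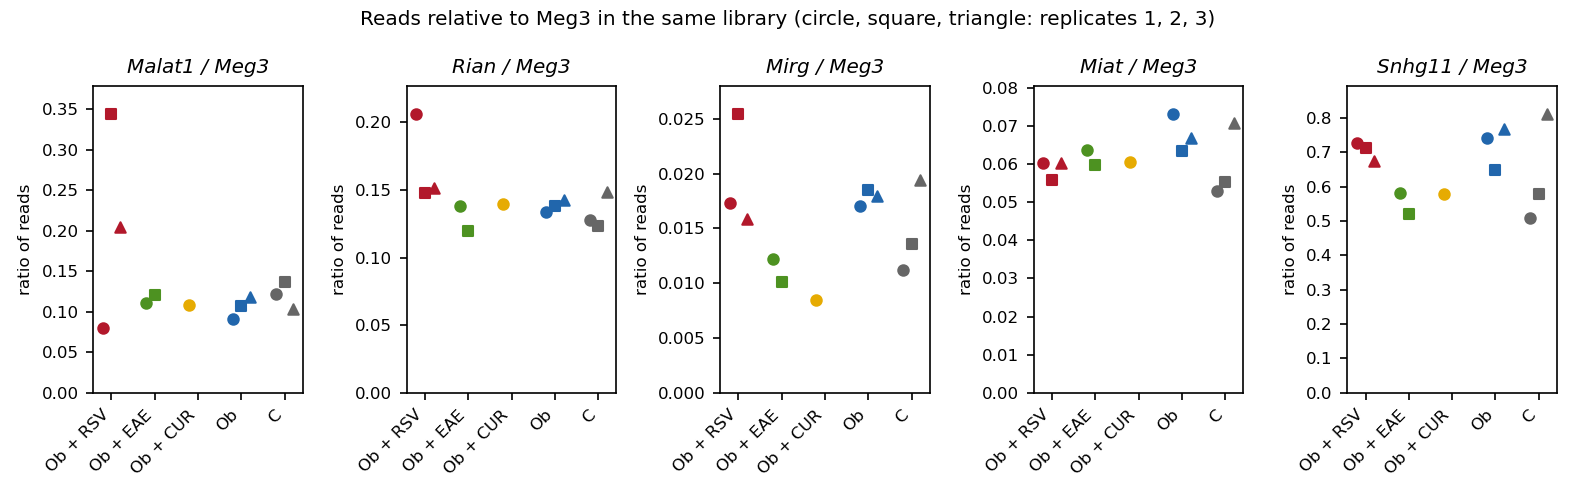
Reads of Malat1, Rian, Mirg, Miat and Snhg11 per read of Meg3 in the same library (y axes, starting at 0), by group on the x axis, with 1 point per library. Malat1 per Meg3 spans 0.0798 to 0.344 in Ob + RSV and 0.0905 to 0.118 in Ob.

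The effect of resveratrol was addressed by Ob + RSV vs. Ob. None of the 6 RNAs other than Malat1 passed the study's threshold (adjusted p under 0.05, log2FC of 1 or more either way) by edgeR or by DESeq2, and none had an unadjusted p under 0.05. Across all 33534 genes tested here, 0.0% were called, 3.16% had an unadjusted p under 0.05 and 6.68% had groups that did not overlap. The paper, with DESeq2 and the same threshold, reported differentially expressed genes in this comparison, non-coding RNAs among them. The log2FC was −0.10 for Neat1 (SE 0.26), −0.26 for Miat (0.25), −0.06 for Meg3 (0.27), 0.16 for Rian (0.24), 0.07 for Mirg (0.27) and −0.10 for Snhg11 (0.28), with adjusted p = 1 for each by edgeR's quasi-likelihood test. All 6 had overlapping groups. Without Ob + RSV replicate 3 the log2FC of Miat was −0.57, with an unadjusted p under 0.05 (edgeR adjusted p = 0.976), and without Ob + RSV replicate 1 it was −0.0086. The median log2FC of the 6 was −0.08, beside 0.00 over all genes.

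In Ob + RSV vs. C, which shares the Ob + RSV libraries with the comparison above, the log2FC of those 6 RNAs ran from −0.19 in Miat to 0.23 in Mirg, and again none was called by edgeR or DESeq2 or had an unadjusted p under 0.05. Mirg had an unadjusted p under 0.05 without Ob + RSV replicate 1 (log2FC 0.53) and without C replicate 3 (0.56), with adjusted p = 1 by edgeR in both. The shares over all genes were 0.0% called, 2.87% with an unadjusted p under 0.05 and 5.43% with groups that did not overlap. The effect of the diet was addressed by Ob vs. C, in which all 7 RNAs were tested, Malat1 included. Its log2FC was −0.26 (SE 0.37), and those of the others ran from −0.10 in Meg3 to 0.16 in Mirg, with adjusted p = 1 by edgeR for each. Of the 7, 0 were called by edgeR or DESeq2, 0 had an unadjusted p under 0.05 and 0 had groups that did not overlap, beside 0.0%, 2.75% and 7.64% of the 33534 genes.

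Aged garlic extract was compared in a fit of all 12 libraries, which shares the Ob libraries with the comparisons above. In Ob + EAE vs. Ob, Malat1 had a log2FC of 0.40 (SE 0.40), Meg3 0.28 (0.28), Rian 0.17 (0.24), Miat 0.15 (0.26), Snhg11 −0.11 (0.30), Neat1 −0.34 (0.27) and Mirg −0.41 (0.29), with adjusted p of 0.621 to 0.959 by edgeR. None was called by edgeR or DESeq2 or had an unadjusted p under 0.05, and the groups overlapped for all 7. With the replicate number as a block, Malat1 had 0.58 (edgeR adjusted p = 0.0416) and Meg3 0.44 (adjusted p = 0.242), both with an unadjusted p under 0.05 and below the minimum log2FC of 1. With the block, 1417 of 36164 genes were called and 6301 had an unadjusted p under 0.05. In the fit without the block, 1.84% of the genes were called and 13.4% had an unadjusted p under 0.05. The groups did not overlap in 38.7%. With the 3 libraries that stand apart left out, 1 gene was called in place of 665. For the single Ob + CUR library the log2FC against Ob was −0.91 for Mirg, −0.34 for Neat1, −0.15 for Snhg11 and 0.02 to 0.19 for the other 4, without a replicate check.

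**Figure D5:**
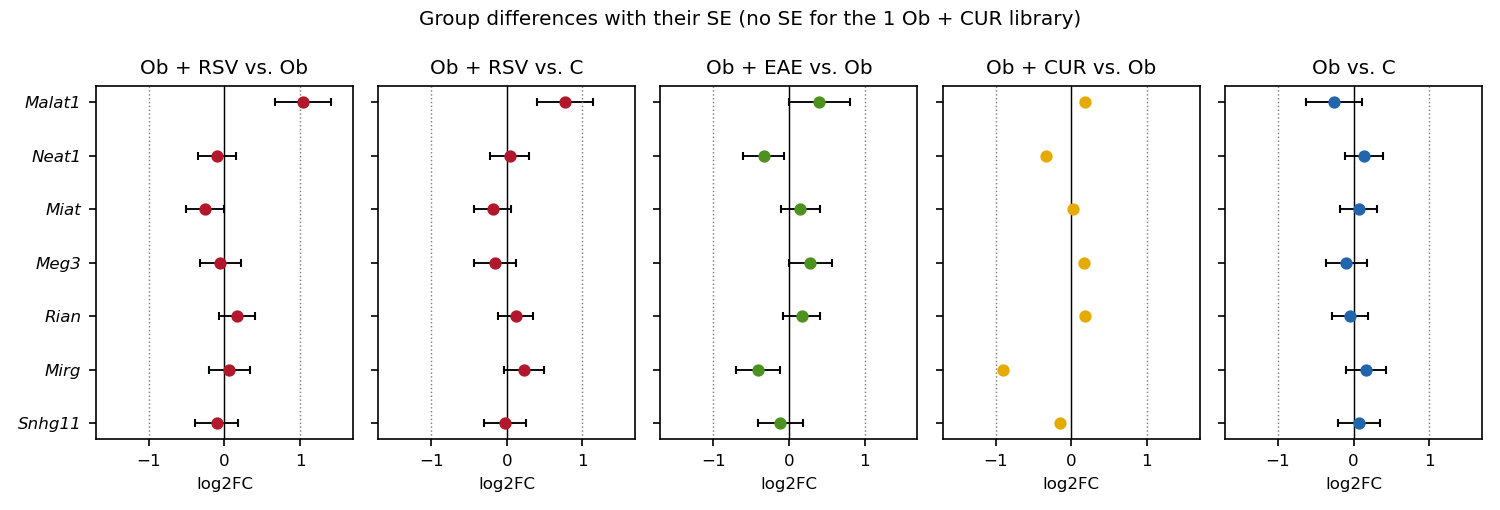
log2FC of each RNA (x axis, bars are the SE of the fit, dotted lines at −1 and 1) in the 5 comparisons, with no SE for Ob + CUR, which has 1 library. Apart from Malat1 in Ob + RSV vs. Ob, at 1.04, all values lie between −0.91 and 0.77.

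Genes of the same pathways were described from fixed lists. Of 20 nuclear speckle proteins and 18 paraspeckle proteins, 0 were called by edgeR in any of the 4 tested comparisons. With library total scaling, and again without Ob replicate 2, 1 speckle protein was called higher in Ob + EAE vs. Ob. At an unadjusted p under 0.05, 0 of each list were past the threshold in the 3 comparisons among C, Ob and Ob + RSV. In Ob + EAE vs. Ob there were 2 higher and 2 lower speckle proteins and 2 higher and 3 lower paraspeckle proteins. Of all genes, 13.4% were past that threshold in Ob + EAE vs. Ob. The speckle scaffold Srrm2 averaged 694 ± 324 CPM in Ob + RSV, against 585 ± 129.5 CPM in Ob (SD, n = 3 each), with a log2FC of 0.20 (SE 0.27, edgeR adjusted p = 1). Its partner Son had a log2FC of −0.04 there, and the paraspeckle proteins Nono and Sfpq had 0.02 and 0.01. The median log2FC in that comparison was 0.03 for the speckle list and −0.05 for the paraspeckle list, beside 0.00 over all genes.

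The 7 other genes in and beside the Dlk1-Dio3 domain were not called by edgeR in any tested comparison. Dlk1, which encodes a transmembrane ligand of the Notch family, averaged 226 ± 41.4 CPM in Ob + RSV and 317 ± 52.2 CPM in Ob (SD, n = 3 each), a log2FC of −0.52 (SE 0.22), the 1 gene of this list with an unadjusted p under 0.05 in that comparison (edgeR adjusted p = 1). Rtl1, a retrotransposon-derived gene, had a log2FC of 0.04 there. Dio3, which encodes the enzyme that inactivates thyroid hormone, was near the limit of detection, with means of 0.125 CPM in Ob + RSV, 0.101 CPM in Ob and 0.451 CPM in C. The median log2FC of the list was 0.04 for Ob + RSV against Ob and −0.16 against C. Of 36 other imprinted genes tested, 0 were called in any comparison with all libraries and TMM scaling. In Ob + EAE vs. Ob, 2 were called higher and 1 lower with the replicate block and without Ob replicate 3, and 1 higher with library total scaling. All genes called in these settings numbered 1417, 1172 and 617, in that order. In the fit with all libraries, at an unadjusted p under 0.05 there were 0 higher and 3 lower for Ob + RSV against Ob, beside 3.16% of all genes. In Ob + EAE vs. Ob there were 7 higher and 3 lower, beside 13.4% of all genes. The median log2FC of this list was −0.11 in Ob + RSV vs. Ob. Kcnk9, a potassium channel, and Nnat, neuronatin, had log2FC of 0.97 (adjusted p = 0.0338) and −0.99 (adjusted p = 0.0433) in Ob + EAE vs. Ob by edgeR, short of the minimum of 1. Peg12 was near the limit of detection, with 0 reads in all Ob + RSV libraries and 0.412, 0.495 and 0.064 CPM in Ob (mean 0.324 CPM). It was not called, and groups that did not overlap were seen in 6.68% of all genes in Ob + RSV vs. Ob.

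In Ob + EAE vs. Ob, 6 of the 20 other snoRNA host genes tested were called lower and 0 higher, beside 1.08% of all genes called lower and 0.763% called higher, with a median log2FC of −0.85 beside 0.05 over all genes, while Snhg11 had −0.11, a difference that was not tested. Gas5, a growth arrest transcript and snoRNA host, averaged 41.1 ± 4.02 CPM in Ob + EAE (n = 2), against 91.5 ± 25.96 CPM in Ob (SD, n = 3), a log2FC of −1.23 (SE 0.28, edgeR adjusted p = 0.0170). Zfas1 had a log2FC of −1.21 (adjusted p = 0.0182) and Snhg6 −1.33 (adjusted p = 0.0249), and Snhg14, the imprinted host beside Ube3a, had 0.74 (adjusted p = 0.226). The count of 6 fell to 0 without Ob replicate 1 (median log2FC of the list −0.59), without Ob + EAE replicate 1 (−0.93) or replicate 2 (−0.77), without the 3 libraries that stand apart (−0.61) and with filterByExpr, a stricter filter on low counts (−0.84). Summed CPM of ribosomal protein mRNAs was 1083 and 931 in Ob + EAE, against 1500 to 2430 in Ob, and that of the 5 endothelium markers was 202 and 199 in Ob + EAE, against 76.6 to 128 in Ob. The mitochondrial transcripts summed to 35317 and 34041 CPM in Ob + EAE, against 39364 to 54329 CPM in Ob. In the Ob + CUR library these sums were 1082, 223 and 33137 CPM. Gas5, Zfas1 and Snhg6 were at 44.7, 26.4 and 7.52 CPM in that library, so these levels were not particular to Ob + EAE. The part of the sums in the difference was not tested. In the 3 comparisons among C, Ob and Ob + RSV, 0 of the 20 were called, with 1 lower at an unadjusted p under 0.05 in Ob + RSV vs. Ob, none in Ob + RSV vs. C and 1 higher in Ob vs. C.

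Of 25 other non-coding RNAs of brain, 0 were called by edgeR in the 3 comparisons among C, Ob and Ob + RSV. In Ob + EAE vs. Ob, 2 of them were called lower, beside 1.08% of all genes. At an unadjusted p under 0.05, 2 were higher and 1 lower for Ob + RSV against Ob, among them 1700020I14Rik, with a log2FC of 0.67 (SE 0.24, edgeR adjusted p = 1). The 2 called were Bc1, the dendritic RNA, at 267 ± 44.3 CPM in Ob + EAE and 2859 ± 3344 CPM in Ob (log2FC −3.52, SE 0.66, edgeR adjusted p = 0.00677), and Epb41l4aos (log2FC −1.47, SE 0.40, adjusted p = 0.0471). The count of 2 fell to 0 without Ob replicate 1 or Ob + EAE replicate 2, without the 3 libraries that stand apart and with filterByExpr, and to 1 without Ob + EAE replicate 1, with RLE, upper quartile or library total scaling and in a fit of the 2 groups alone. Kcnq1ot1, an imprinted antisense RNA, had a log2FC of 0.32 against Ob in Ob + RSV and of 0.26 in Ob + EAE. Of 15 genes of nuclear RNA decay and 3′ end processing, 1 was called, Pop5, a subunit of the RNase P complex that cuts the 3′ end of Malat1, lower in Ob + EAE vs. Ob (log2FC −1.04, SE 0.24, adjusted p = 0.0209), and this call was also lost without Ob replicate 1, without either Ob + EAE replicate, without the 3 libraries, with filterByExpr and with library total scaling. Of all genes, 1.08% were called lower in that comparison. Malat1 had a log2FC of 0.40 there (SE 0.40, edgeR adjusted p = 0.797), and a link between Pop5 and Malat1 was not tested. The medians of these 2 lists in Ob + RSV vs. Ob were 0.16 and 0.02.

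The genes whose log2 CPM was most like each RNA over the 12 libraries, among 29100 genes and given as a description, were 3 for each. For Neat1 they were Mdm2, the ubiquitin ligase of p53 (r = 0.97), Cnot2, a subunit of the main deadenylase complex (0.97), and the splicing factor Srsf6 (0.96). For Rian they were Snrnp48, a protein of the minor spliceosome (0.97), the pseudogene Gm13498 (0.96) and the kinase Nek1 (0.95). For Snhg11 they were the nuclear anchoring protein Akap8 (0.98), Fhl1 (0.94) and the Mediator kinase Cdk8 (0.94), and for Meg3 Prdm10 (0.97) and the antisense RNAs Gm48249 (0.96) and Gm47950 (0.94).

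For Miat the nearest genes were the RNA Gm34035 (r = 0.95), Mapkbp1 (0.92) and Zkscan2 (0.92). For Mirg they were the RNA Gm14827 (0.96), Aanat, an enzyme of melatonin synthesis (0.95, at 1.68 to 8.32 CPM), and Pip5kl1 (0.94). For Malat1 they were Gm47591, a transcript annotated inside an intron (0.95), and the IDs ENSMUSG00000123010 (0.93) and ENSMUSG00000126796 (0.92), which have no symbol in the tables used. All 3 of these were at 3.49 CPM or less in each library, so their patterns rest on few reads. Over the 9 libraries of C, Ob and Ob + RSV the value of r for the nearest gene of each RNA was between 0.95 and 0.99.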

How the data were processed

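The authors sequenced polyadenylated RNA from a stranded kit as paired reads, aligned them with HISAT2 and counted them with featureCounts. The deposited table holds raw counts per Ensembl gene ID, and the submitters' processing notes name GRCm39. The sources used here do not give the strand setting of the counting, so reads of antisense partners cannot be told apart. Symbols were matched by ID for 51486 of 78334 IDs, and exon lengths came from GENCODE vM21 on GRCm38, another build, so positions are printed only for RefSeq sequences on GRCm38.p6. CPM is counts over the library total. Tests used edgeR 4.0.16 (glmQLFit and glmQLFTest, TMM scaling, at least 10 reads in total, Benjamini-Hochberg over all genes) in R 4.3.3, with 6 residual degrees of freedom over 9 libraries and 7 over 12, and the SE is the size of the log2FC over the square root of F. The Ob + CUR library got no p. Within-group SD and correlations used log2 CPM (TMM, prior count 2). Tables and plots used Python 3.11.15, pandas 2.3.3 and matplotlib 3.10.9, and the fit was tested on simulated data.

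The members and the 7 gene lists were chosen with earlier results of these data known. Named genes were the members, up to 3 genes per list with the smallest p in any tested comparison, a few fixed by name, and the 3 genes most correlated with each member among those passing filterByExpr. Alternatives were RLE, upper quartile and library total scaling, filterByExpr, a minimum of 1 read, DESeq2 1.42.0, fits of 2 groups or of 12 libraries, unadjusted p-values, a replicate block, leaving out each library, and leaving out 3 libraries together. Replicates are separate samples of a group by their labels. Counts carry no molecular identifiers, and columns of other samples numbered 0.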

Additional observations from a re-analysis of the deposited data

How the results depend on the processing

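Of 441 recomputed log2FC values of the 7 RNAs, 404 kept their direction and 37 reversed, 33 of them with 1 library left out, and no reversed value started beyond 0.23 from 0 in either direction. Leaving out each library in turn, the log2FC in Ob + RSV vs. Ob ran from −0.40 to 0.11 for Neat1, −0.33 to 0.20 for Meg3, −0.0446 to 0.34 for Rian, −0.23 to 0.37 for Mirg and −0.34 to 0.14 for Snhg11. In Ob + RSV vs. C it ran from −0.26 to 0.32 for Neat1, −0.50 to 0.0615 for Miat, −0.43 to 0.10 for Meg3, −0.0891 to 0.27 for Rian, −0.0565 to 0.56 for Mirg and −0.26 to 0.27 for Snhg11. In Ob vs. C it ran from −0.0721 to 0.41 for Neat1, −0.0717 to 0.28 for Miat, −0.25 to 0.0144 for Meg3, −0.22 to 0.10 for Rian, −0.01 to 0.49 for Mirg and −0.14 to 0.37 for Snhg11, and in Ob + EAE vs. Ob from −0.17 to 0.11 for Snhg11. With the 3 libraries that stand apart left out, Mirg had −0.36 in Ob + RSV against Ob and −0.17 against C, and Neat1 had −0.0847 against C. With the replicate block (replicate number as a factor) Snhg11 had 0.12 in Ob + EAE vs. Ob, and Malat1 had 0.83 in Ob + RSV against Ob and 0.47 against C. Same-numbered libraries correlated in their deviations from the group means at −0.03 to 0.33, and differently numbered libraries of different groups at −0.31 to 0.15. The highest value was between replicate 3 of Ob and of Ob + RSV, while C replicate 1 was closest to Ob replicate 2. Whether the numbers pair the samples was thus not settled. No alternative gave a called member among those tested, the replicate block, DESeq2 and each library left out of a group of 3 included. Malat1 was not tested for a call in the comparisons with Ob + RSV, so this does not cover it there. The count of other snoRNA host genes called lower in Ob + EAE vs. Ob, recomputed after its values were seen, was 0 with filterByExpr and with the 3 libraries left out, and 0 to 7 with each library left out, where a lone Ob + EAE library is assumed to vary like the other groups. All genes called in that comparison numbered 665, against 77 with filterByExpr, 905 with DESeq2, 1417 with the replicate block, and 18 to 1172 with 1 library left out. The groups hold 1 to 3 libraries, and the RNA with fewest reads, Mirg, had at least 1222 in each library.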

Other observations

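Bc1, a brain RNA read by RNA polymerase III, had a wider range than any of the 7 RNAs. It was at 2903, 4370 and 800 CPM in Ob + RSV, at 299 and 236 CPM in Ob + EAE, at 246 CPM in Ob + CUR, at 6718, 804 and 1054 CPM in Ob and at 1277, 2218 and 1369 CPM in C. Its Ob + EAE and Ob + CUR libraries were below all others, and its highest library, Ob replicate 1, was one in which all 7 RNAs were lowest within Ob. Gas5 was at 104, 77.1 and 71.7 CPM in Ob + RSV, 43.9 and 38.3 CPM in Ob + EAE, 44.7 CPM in Ob + CUR, 117, 64.8 and 93.1 CPM in Ob and 58.4, 60.3 and 102 CPM in C, so the same 3 libraries were lowest for both RNAs. Snhg14, which shares the snoRNA host role but is a long nuclear RNA, was lowest in Ob + RSV replicate 1, at 87.0 CPM, and in Ob replicate 1, at 89.9 CPM, the libraries in which the 7 RNAs described here were also low.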
